A study of Mus musculus with 16 samples.

Results

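This account describes how the lungs of smoke-breathing adult mice differed between animals exposed to smoke before birth and animals that were not. Left lungs of male Balb/c mice, an inbred laboratory strain, had been collected at 15 weeks of age and hybridized to Affymetrix mouse expression arrays, which measure each transcript with 1 or more probe sets. The SS group had been exposed to second-hand smoke both in utero and as adults, and the AS group to filtered air in utero and smoke as adults. The SA group (smoke in utero, air as adults) and the AA group (filtered air at both times) had no adult smoke. Smoke was sidestream smoke, which comes off the burning end of a cigarette, at a particle load of 10 mg/m3 for 5 hr/day on 7 days a week, and the control animals breathed filtered air on the same schedule. The labels describe 4 arrays per group, each from a different animal. They give no litter, dam, hybridization batch or time of collection. Differences between litters or in any of these therefore cannot be told apart from the in utero exposure.

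The comparison was made by exposure label, SS minus AS, on all genes. It rests on 6 of the 14 samples of the series, 3 SS and 3 AS, from 8 of its 16 arrays. SS replicates 1 and 2 differed from each other by much less than other animals of a group did, and so did AS replicates 3 and 4. The 2 arrays of such a pair entered as their mean, as a single sample. Over the most variable bright probe sets the root-mean-square difference within these 2 pairs was 0.0721 and 0.0983 on the log2 scale, against 0.313 to 0.739 for the other 22 pairs of replicates. The averaged AS sample also stood apart from its group. Over the least variable bright probe sets its arrays lay 0.207 to 0.257 from AS replicates 1 and 2, while the other 18 pairs of replicates lay 0.0728 to 0.132 apart. Results are therefore also given without it. Values below are listed for the averaged SS sample, SS replicate 3 and SS replicate 4, then for AS replicate 1, AS replicate 2 and the averaged AS sample. The lung label held up: Sftpc, the surfactant protein of alveolar type 2 cells, lay between 15.01 and 15.10 in all 14 samples on a scale that ended at 15.11, and Scgb1a1, the secretory protein of airway club cells, between 14.91 and 14.98.

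Several of the systems that recur below are short-lived signalling programmes. Immediate early genes encode transcription factors and RNA-binding proteins. Cells switch these genes on within minutes of a growth factor, cytokine, stress or mechanical stimulus, without new protein synthesis. Among the proteins made in such a response, dual-specificity phosphatases and Sprouty proteins shut the kinase signal off again. Glucocorticoid-induced genes respond to the adrenal stress hormone through its nuclear receptor. The aryl hydrocarbon receptor (AhR) senses the polycyclic hydrocarbons of smoke and induces Cyp1a1, and NRF2 induces antioxidant enzymes.

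In smoke-breathing adults with prenatal smoke, 12 immediate early genes and several lymphocyte genes were lower. A smaller, more mixed set of genes was higher, counted at the brightest probe set of each gene. Egr1, Fosb, Fos and Junb, the chemokine gene Ccl3 and the matricellular gene Ccn1 had the largest called falls at their brightest probe sets, between −2.43 and −1.83 on the log2 scale. The transcription factor genes Creb5 and Klf10 and the smoke-metabolizing enzyme gene Cyp1a1 were among the 6 highest called rises. Larger differences that did not pass included Egr3 (−2.49) and Zbtb16 (2.24). At the brightest probe set of each gene, 139 of 18193 genes differed at an adjusted p under 0.05, which is 0.764% of genes. Of these, 54 genes were higher in SS (0.297% of genes) and 85 were lower (0.467%). Over all 45037 probe sets 436 were called (0.968%), 275 of them higher (0.611%) and 161 lower (0.357%). The majority was thus higher over all probe sets and lower at the brightest ones. Of the 275 higher probe sets 127 had no gene symbol or several, and 94 were dimmer ones of genes with 1 symbol. Of the 161 lower ones 27 and 49 were of these kinds. At an unadjusted p under 0.05 there were 2367 genes (13.0%). Only 28 called genes differed by more than 2-fold, 6 higher and 22 lower, and the median called rise was 0.54 and the median called fall −0.63 (log2). The SS and AS values did not overlap for any called gene, but they also did not overlap for 18.5% of all genes. Without the averaged AS sample 152 genes were called (0.835%), 49 higher and 103 lower, and 99 of the 139 were among them. Leaving out an SS sample left 46 to 55 called genes. In each of the 6 fits that left out 1 SS or AS sample, 33 genes kept their call, 12 higher and 21 lower. All p-values are two-sided, from limma's moderated test in 1 model over the 4 groups, and adjusted by the Benjamini-Hochberg method over all 45037 probe sets.

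**Figure D1:**
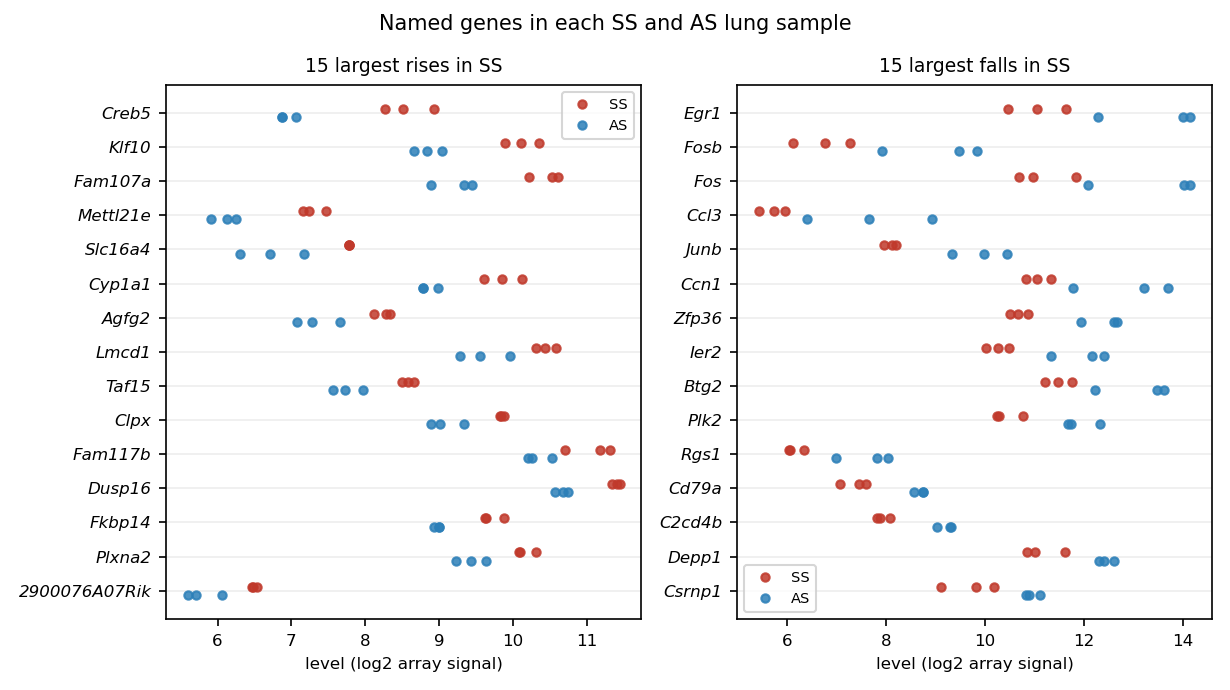
Level (log2 array signal, x axis) of the 15 genes with the largest rises (left panel) and the 15 with the largest falls (right panel) in each SS sample (red points) and AS sample (blue points). The red and blue points of a gene do not overlap in any of the 30 rows, and the AS points of Egr1, Fosb, Fos, Ccl3 and Ccn1 spread more widely than their SS points.

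The higher genes were led by Creb5, a basic leucine zipper transcription factor of the CREB family that binds cyclic AMP response elements. Its log2 level was 8.27, 8.51 and 8.93 in the SS samples and 7.06, 6.87 and 6.87 in the AS samples. All 3 SS samples were above every sample of the other 3 groups, since SA averaged 7.23 ± 0.23 and AA 7.28 ± 0.23 (SD, n = 4 each). Creb5 rose by 1.64 (SE 0.17, 3.11-fold, adjusted p = 0.000311). Of its 3 dimmer probe sets 2 shifted the same way and 1 of those was called, and their differences ran between −0.40 and 1.31. Klf10, a Krüppel-like zinc finger repressor induced by TGF-beta, had levels of 10.12, 9.89 and 10.35 in SS and 8.84, 8.65 and 9.04 in AS. It rose by 1.27 (SE 0.15, adjusted p = 0.00121). Here the AS samples were the low ones, with SA at 9.58 ± 0.17 and AA at 9.61 ± 0.25 between AS and SS. Both calls held whichever single sample was left out.

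Cyp1a1, the monooxygenase that oxidizes polycyclic hydrocarbons and the classical AhR target, had levels of 9.61, 10.12 and 9.85 in SS and 8.78, 8.78 and 8.98 in AS. Every SS sample was above every sample of the AS group, and SA averaged 8.48 ± 0.16 and AA 8.34 ± 0.44 (n = 4 each). The rise was 1.01 (SE 0.20, 2.02-fold, adjusted p = 0.0265). The call was lost without AS replicate 1 (adjusted p = 0.0631), AS replicate 2 (0.064), SS replicate 3 (0.123) or SS replicate 4 (0.099), with differences between 0.88 and 1.02. No other of the 9 AhR targets on the array was called, and their median difference was 0.06. Ahr itself differed by −0.23 (adjusted p = 0.394) and Tiparp, the poly-ADP-ribose polymerase that feeds back on the receptor, by 0.18 (0.453). Of the 16 NRF2 antioxidant genes none was called by limma and 1 passed an unadjusted p under 0.05. Their median was 0.05, and Gclc, which makes the first step of glutathione synthesis, differed by 0.31 (adjusted p = 0.228).

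Fam107a, an actin-binding protein gene that glucocorticoids induce, had levels of 10.22, 10.61 and 10.54 in SS and 9.33, 8.90 and 9.45 in AS. It rose by 1.23 (SE 0.26, adjusted p = 0.0363), and both of its dimmer probe sets shifted the same way. This call was lost in each of the 6 fits that left out an SS or AS sample, at adjusted p-values of 0.0526 to 0.144. Mettl21e, a lysine methyltransferase of the METTL21 family, had 7.16, 7.24 and 7.47 in SS and 5.91, 6.13 and 6.25 in AS. It rose by 1.20 (SE 0.22, adjusted p = 0.0162), a call lost without any of the SS samples (0.052 to 0.0905). Slc16a4, a monocarboxylate transporter family member, rose by 1.06 (SE 0.16, adjusted p = 0.00557). Its 3 SS samples lay between 7.78 and 7.79, close to the means of 7.97 in SA and 7.74 in AA, and the AS samples were low at 6.71, 6.30 and 7.18. Its dimmer probe set differed by −0.10, so the gene rests on 1 probe set.

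Further genes completed the 15 largest rises. Dusp16, a phosphatase that inactivates JNK and p38 kinases, had levels of 11.45, 11.41 and 11.34 in SS, against 10.57, 10.74 and 10.67 in AS (difference 0.74, SE 0.09, adjusted p = 0.00119). Its dimmer probe set pointed the other way, at −0.73, so the 2 probe sets disagreed on direction. Plxna2, a semaphorin receptor, differed by 0.73 (adjusted p = 0.00328), and its 3 other probe sets differed by 0.43 to 0.46, 2 of them with a call. Lmcd1, a LIM-domain transcriptional cofactor, had 10.44, 10.59 and 10.31 in SS and 9.56, 9.28 and 9.96 in AS (0.85, adjusted p = 0.0189), and lost its call without AS replicate 2 (0.0541) or any of the SS samples (0.0509 to 0.0909). The others were Agfg2 (0.91), the RNA-binding protein gene Taf15 (0.83), Clpx, the chaperone subunit of a mitochondrial protease (0.77), Fam117b (0.74), Fkbp14, a prolyl isomerase of the endoplasmic reticulum (0.73), and the transcript 2900076A07Rik (0.70). The calls of Taf15 without SS replicate 3 or 4 (adjusted p = 0.0533 and 0.0728), of 2900076A07Rik without SS replicate 4 (0.0643) and of Fam117b without any of 4 samples (0.061 to 0.118) were lost. The dimmer probe sets of Fam117b and Fkbp14 differed by −0.46 to −0.05 and by −0.16, opposite in sign to their brightest ones. Those of Agfg2, Taf15 and Clpx differed by 0.12, 0.0001 and 0.18, of the same sign but not called. Of the 30 named genes 15 had a second probe set, 23 such probe sets in all, of which 17 shifted the same way and 7 were also called.

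Smaller called rises included members of the same families as these leaders. Among Krüppel-like factors Klf7 rose by 0.49 (adjusted p = 0.0261) and Klf11 by 0.53 (0.0423). The family did not share 1 direction, since Klf2, described below, fell by 1.15 (adjusted p = 0.00121). Rapgef3, the cyclic AMP-activated exchange factor that switches on the small GTPase Rap, had 9.55, 9.50 and 9.46 in SS and 8.77, 9.03 and 8.72 in AS, a difference of 0.66 (SE 0.09, adjusted p = 0.00282). Rapgef5, another Rap exchange factor, rose by 0.52 (adjusted p = 0.00708). Both of these calls held in all leave-out fits. Egfr, the epidermal growth factor receptor, had 9.30, 9.27 and 9.35 in SS and 9.04, 8.81 and 8.67 in AS (0.47, adjusted p = 0.0184), and lost its call without any 1 of the SS samples (adjusted p-values of 0.0616 to 0.0955). Klf7 lost its call without the averaged AS sample, the averaged SS sample or SS replicate 3 (0.0707 to 0.127), and Klf11 without any of 10 samples (0.0529 to 0.186). These smaller rises were picked out after their values were seen.

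The immediate early genes made up the largest group of falls. Of the 26 measured, 12 fell and none rose, and 23 differences were below 0, with a median of −1.21 (log2). Over all genes the median was −0.02, 44.5% lay above 0, and 0.467% were called lower and 0.297% higher. Without the averaged AS sample 15 were called and the median was −1.29. Without the averaged SS sample, or without SS replicate 4, 7 were called, with medians of −1.24 and −0.97. The members were chosen with earlier results of these animals known, so the count describes the group and is not independent evidence of its direction.

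Egr1, a zinc finger transcription factor and the prototype of the class, had levels of 11.05, 11.64 and 10.46 in SS and 13.997, 14.15 and 12.28 in AS. The averaged AS sample was the lowest of its group and still above all SS samples. Egr1 fell by 2.43 (SE 0.43, 5.39-fold, adjusted p = 0.0138). It missed the threshold without the averaged SS sample (adjusted p = 0.0623) or SS replicate 4 (0.0833). Fos, which forms the AP-1 transcription factor with Jun proteins, had 10.97, 11.84 and 10.69 in SS and 14.02, 14.14 and 12.09 in AS. It fell by 2.25 (SE 0.47, adjusted p = 0.0363) and lost its call without AS replicate 1 (0.0965), AS replicate 2 (0.0911), the averaged SS sample (0.142) or SS replicate 4 (0.164). Fosb fell by 2.36 at an adjusted p of 0.0495, and leaving out any of 11 samples ended that call (adjusted p-values of 0.0601 to 0.201).

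Other members moved less but with smaller errors, and these calls held in all leave-out fits. Junb, an AP-1 subunit, had 8.19, 8.11 and 7.96 in SS, against 9.99, 10.44 and 9.34 in AS (−1.83, SE 0.22, adjusted p = 0.00119). Zfp36 encodes tristetraprolin, which binds AU-rich elements and speeds the decay of cytokine mRNAs. Its levels were 10.67, 10.86 and 10.50 in SS and 12.60, 12.67 and 11.94 in AS (−1.73, SE 0.18, 3.31-fold, adjusted p = 0.000424). Ier2, a nuclear immediate early protein, had 10.26, 10.50 and 10.02 in SS and 12.16, 12.40 and 11.35 in AS (−1.71, SE 0.21, adjusted p = 0.0014). Klf2, the Krüppel-like factor that endothelial cells express under flow and that quiescent lymphocytes also carry, had 12.00, 12.14 and 11.65 in SS and 13.01, 13.03 and 13.19 in AS (−1.15, adjusted p = 0.00121). Jun fell by 0.71 (SE 0.08, adjusted p = 0.00104), and Ier3 and Dusp1 differed by −1.18 (adjusted p = 0.00244) and −1.03 (0.00531). The groups of each of these genes lay well apart, and the averaged AS sample was the lowest AS sample for Junb, Zfp36, Ier2 and Dusp1 and the highest for Klf2.

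Btg2, an antiproliferative cofactor of mRNA deadenylation, and Csrnp1, a cysteine- and serine-rich nuclear protein, completed the called members. Btg2 fell by 1.62 and lost its call without the averaged SS sample (adjusted p = 0.0559) or SS replicate 4 (0.0736). Csrnp1 fell by 1.24 and lost its call without AS replicate 2 (0.051), the averaged SS sample (0.0533) or SS replicate 4 (0.0546). The dimmer probe set of Csrnp1 differed by only −0.13 and was not called. Egr3 and Nr4a1, an orphan nuclear receptor, differed as much as Egr1, by −2.49 and −2.21, but did not pass (adjusted p = 0.101 and 0.0574). Their AS samples spread over 8.48 to 11.78 and 12.06 to 13.75, and without the averaged AS sample both were called (adjusted p = 0.0132 and 0.0335). Fosl1, Fosl2 and Ier5 differed by 0.07, 0.07 and 0.16 and were not called.

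**Figure D2:**
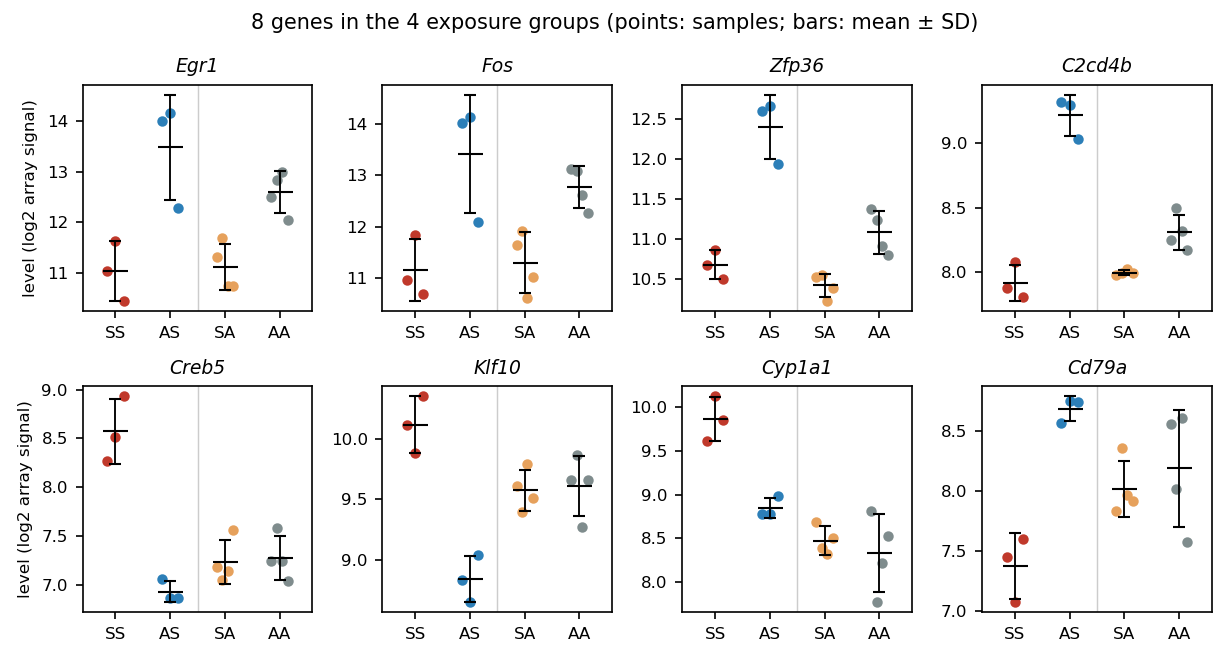
Level (log2 array signal, y axis) of 8 genes in the samples of the 4 exposure groups (coloured points), with each group's mean and SD (black bars, n = 3 for SS and AS, n = 4 for SA and AA). Egr1, Fos, Zfp36 and C2cd4b are highest in AS, Creb5 and Cyp1a1 are highest in SS, Klf10 is lowest in AS, and Cd79a is lowest in SS.

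The levels in adults kept in air place these differences. Egr1 averaged 11.12 ± 0.46 in SA and 12.59 ± 0.42 in AA (SD, n = 4 each), and AS replicates 1 and 2 were above all AA samples while the averaged AS sample was below the AA mean. Zfp36 averaged 10.42 ± 0.15 in SA and 11.08 ± 0.27 in AA, and Ier2 10.30 ± 0.12 in SA and 10.75 ± 0.21 in AA. As a mean over the 26 immediate early genes, taken relative to the AA mean, the SS samples stood at −0.02, 0.08 and −0.49 and the AS samples at 1.08, 1.55 and 0.50. The SA samples stood between −0.61 and −0.39, and the AA samples between −0.24 and 0.49. In the air-breathing adults 24 of the 26 immediate early genes were also lower after prenatal smoke, by a median of 0.45 (log2, SA minus AA −0.45), but there none of the 45037 probe sets was called by limma (2808 probe sets, 6.23%, and 900 genes, 4.95%, had an unadjusted p under 0.05). For Egr1 the SS minus AS difference exceeded the SA minus AA one by −0.96 (SE 0.57), and for Fos by −0.78 (SE 0.63), and neither difference of differences passed (adjusted p = 0.657 and 0.762). Of the 26 genes 1 passed in the limma fit, Klf2, at −1.05 (SE 0.18, adjusted p = 0.0399). Outside this list Plk2 (−1.42, adjusted p = 0.0399) and Dusp6 (−0.66, 0.0325), both described below, passed as well.

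Several called falls lay outside the immediate early list, some of them picked out after their values were seen. Plk2, a stress-induced Polo-like kinase, had 10.23, 10.77 and 10.28 in SS and 11.73, 12.32 and 11.69 in AS (−1.49, SE 0.18, adjusted p = 0.00157). Its dimmer probe set differed by only −0.12 and was not called, so the fall rests on 1 probe set. Ppp1r15a encodes GADD34, which directs protein phosphatase 1 to initiation factor eIF2-alpha and restores translation after stress. It had 9.16, 9.31 and 8.96 in SS and 10.15, 10.44 and 10.40 in AS (−1.18, SE 0.10, 2.27-fold, adjusted p = 8.65e-05). C2cd4b had the lowest p-value of all probe sets, with 7.88, 8.08 and 7.81 in SS and 9.32, 9.29 and 9.03 in AS (−1.29, SE 0.10, adjusted p = 6.36e-05). Depp1, a FOXO-induced gene, fell by 1.28 (adjusted p = 0.00229), its SS samples at 10.86, 11.63 and 11.02 and its AS samples at 12.31, 12.40 and 12.62. Ccn1, a secreted matricellular protein, fell by 1.83 (adjusted p = 0.0238) and its 3 other probe sets differed by −2.01 to −1.37, with 1 of them called. The call was lost in 5 of the 6 fits without an SS or AS sample, the one without the averaged AS sample excepted (adjusted p-values of 0.0609 to 0.113). Arc, better known as a synaptic immediate early gene, fell by 0.94 (adjusted p = 0.00557) from a low level, 4.88 in SS and 5.83 in AS.

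Feedback inhibitors of MAP kinase signalling were lower as well. Of 13 such genes 5 fell and none rose, where 0.467% of all genes fell. The median was −0.46, and −0.57 with 6 called without the averaged AS sample. Without the averaged SS sample or SS replicate 4 only 2 of the 13 were called. Dusp6, the cytoplasmic phosphatase of ERK, had 11.91, 11.85 and 11.97 in SS and 12.82, 12.86 and 12.92 in AS, groups that were each tight and far apart (−0.96, SE 0.08, adjusted p = 8.65e-05). Spry4, a Sprouty inhibitor of receptor tyrosine kinases, fell by 1.22 (adjusted p = 0.0118), Dusp2 by 0.76 (0.0103) and Spry1 by 0.46 (0.0439). The calls of Spry4 and Dusp2 were lost without the averaged SS sample (adjusted p = 0.0567 and 0.0539) or SS replicate 4 (0.0507 and 0.0603), and that of Spry1 without any of 10 samples (0.0524 to 0.186). Dusp5 (−0.62) and Errfi1 (−0.47) were not called. Dusp1, named above, is also on this list. Dusp16, described above as a called rise of 0.74 with a second probe set at −0.73, is a MAP kinase phosphatase too but is not on the list.

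**Figure D3:**
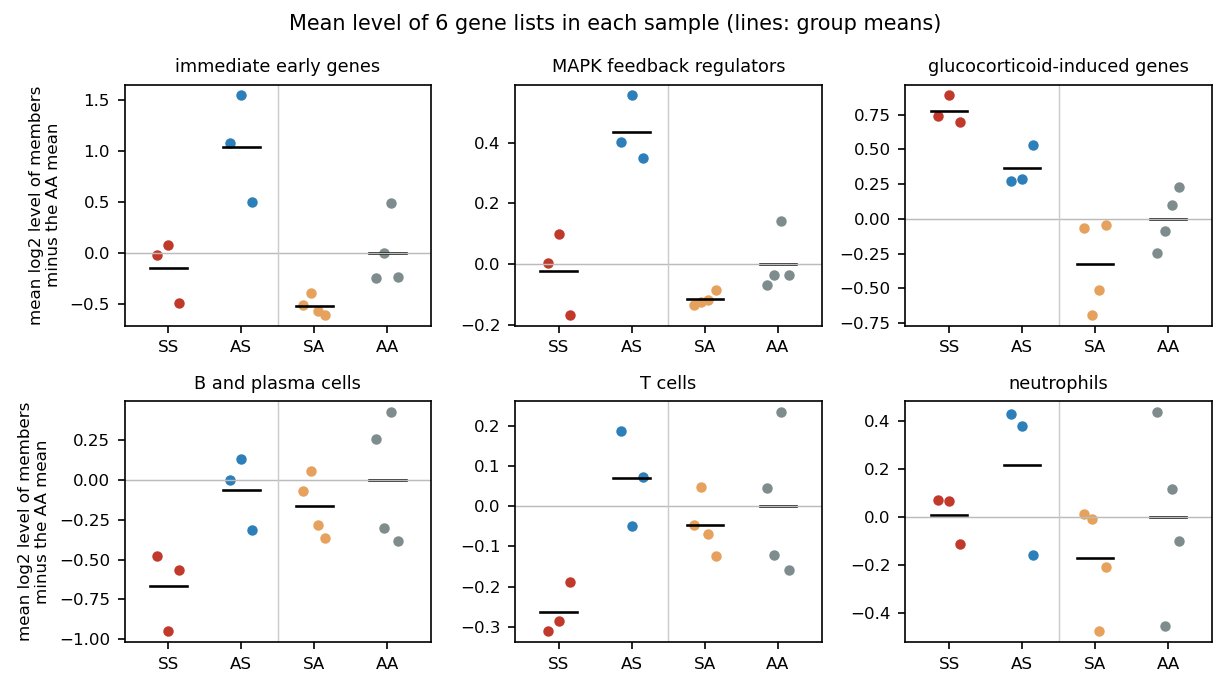
Mean log2 level of the members of 6 gene lists in every sample, relative to the mean of the AA samples (y axis), by exposure group (x axis), with group means as black lines. For the immediate early genes and the MAPK feedback regulators all AS points lie above all SS points, for the glucocorticoid-induced genes all SS points lie above all AS points, and for the B and plasma cell markers and T cell markers all SS points lie below all AS points.

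Promoter sequence is shown for called genes that share 1 short element. RefSeq windows (assembly GRCm38.p6) matched 113 of the 139 called genes and 25 of the 30 named ones, and the 250 bases before each transcription start were searched on both strands. The palindromic cyclic AMP response element, TGACGTCA, which CREB and ATF family factors such as Creb5 can bind, was present in 1.55% of all 32851 windows. It was present in 7.23% of the 83 windows of genes lower in SS, from 6 genes (Btg2, Dusp1, Plk2, Ppp1r15a, Nfkbid and Myl6), and in 4.48% of the 67 windows of genes higher in SS, from 3 genes (Creb5, Lmcd1 and Tmc7). These shares are descriptions of the windows and were not tested. The stretches below are printed 5′ to 3′ on the gene's strand with the element in capitals, for 4 falling and 2 rising genes chosen after the matches were seen.
Btg2, chr1:134079284-134079351, minus strand, 196 to 129 bases before the start: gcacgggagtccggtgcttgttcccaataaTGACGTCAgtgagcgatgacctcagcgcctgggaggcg
Dusp1, chr17:26508578-26508645, minus strand, 173 to 106 bases before the start: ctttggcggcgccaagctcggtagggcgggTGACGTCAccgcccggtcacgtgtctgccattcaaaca
Plk2, chr13:110394952-110395019, plus strand, 92 to 25 bases before the start: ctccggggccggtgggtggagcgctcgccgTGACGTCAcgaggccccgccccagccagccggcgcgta
Ppp1r15a, chr7:45526269-45526310, minus strand, 42 to 1 bases before the start: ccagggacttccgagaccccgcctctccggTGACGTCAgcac
Creb5, chr6:53287228-53287295, plus strand, 75 to 8 bases before the start: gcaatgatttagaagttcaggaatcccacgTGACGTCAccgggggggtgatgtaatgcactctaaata
Lmcd1, chr6:112273598-112273665, plus strand, 160 to 93 bases before the start: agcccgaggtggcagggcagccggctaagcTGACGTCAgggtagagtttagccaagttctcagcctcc
So the same 8 letters stood before genes that fell and before genes that rose. In Creb5 the element shared 2 bases with an E-box.

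The shares of the other motifs searched are given next. The E-box CACGTG was in 8.43% of windows of lower genes and 7.46% of those of higher genes, against 6.02% of all windows. The AP-1 site TGANTCA was in 7.23% and 2.99%, against 6.75%, and the AhR core TNGCGTG in 7.23% and 7.46%, against 4.10%. The antioxidant element TGANNNNGC was in 31.3% and 43.3%, against 35.2%. The D-box TTATGTAA was found in the windows of 1 higher gene and no lower gene, the kappaB site in those of 1 lower gene and no higher gene, and the glucocorticoid element in none of either set.

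Glucocorticoid-induced genes did not share the direction of the immediate early genes. Of 18 measured, 13 differed upwards, with a median of 0.33 (0.41 without the averaged AS sample), but only Fam107a rose and Dusp1, an immediate early gene too, fell. Of all genes 0.297% rose and 0.467% fell. By limma 8 of the 18 had an unadjusted p under 0.05, against 13.0% of all genes. Without the averaged AS sample 3 were called, 2 higher and 1 lower. Without any 1 of the SS samples 1 was called, and it was lower. Zbtb16, a BTB zinc finger repressor, showed the largest difference, with 11.92, 11.87 and 12.22 in SS and 8.99, 10.36 and 9.95 in AS. That is a difference of 2.24 (SE 0.56) that did not pass (adjusted p = 0.0802). Fkbp5, the co-chaperone of the glucocorticoid receptor, had 10.04, 10.25 and 10.53 in SS and 8.19, 8.61 and 9.28 in AS, a difference of 1.58 (SE 0.37, adjusted p = 0.0612). The SS and AS values of both genes were clear of each other, but SA and AA samples spread widely, with SDs of 1.003 and 0.98 for Zbtb16. Without the averaged AS sample Fkbp5 was called (adjusted p = 0.0435). As a mean over the list, relative to AA, the SS samples stood at 0.74, 0.89 and 0.70 and the AS samples at 0.27, 0.29 and 0.54, and the SA samples were between −0.69 and −0.04. In adults kept in air the median difference had the opposite sign, −0.33 for SA minus AA. Of the 18 circadian clock genes none was called by limma, 3 had an unadjusted p under 0.05, and the median was −0.01 (0.06 without the averaged AS sample). Cry1, a clock repressor, differed by 0.40 (adjusted p = 0.0735) and Dbp, a clock output factor, by −0.34 (0.754).

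Some genes of B and T lymphocytes also fell. Cd79a, a signalling chain of the B cell receptor, had 7.45, 7.08 and 7.60 in SS and 8.56, 8.75 and 8.74 in AS (−1.31, SE 0.22, 2.47-fold, adjusted p = 0.0125). It lost its call without SS replicate 3 (adjusted p = 0.0658). Fcer2a, the low-affinity IgE receptor of B cells, had 6.94, 6.61 and 6.69 in SS and 7.94, 8.24 and 7.53 in AS (−1.16, adjusted p = 0.0358, and lost without any of 7 samples at 0.0525 to 0.139). Of the 13 B and plasma cell markers measured these 2 fell, none rose, and 10 were below 0, with a median of −0.73 (−0.88 and 3 called without the averaged AS sample). Of all genes 0.467% fell. Ms4a1, which encodes CD20, and Pou2af1, a B cell transcriptional coactivator, differed by −1.22 each without passing (adjusted p = 0.143 and 0.201). The plasma cell genes Igha and Jchain differed by 0.26 and 0.41. Among the T cell markers all 15 were below 0 (median −0.30), and Ccr7, the lymph node homing receptor, and Cd2, an adhesion receptor, fell by 0.94 and 0.40 (adjusted p = 0.0162 and 0.0154). Ccr7 lost its call without the averaged AS sample (0.0514) or SS replicate 3 (0.0777), and Cd2 without any of the SS samples (0.0576 to 0.0886). Leaving out SS replicate 3 left no B cell or T cell marker called. None of the 10 NK cell markers was called by limma, although all 10 were below 0 (median −0.39) and 6 had an unadjusted p under 0.05. By that measure 9 of the 13 B and plasma cell markers and 11 of the 15 T cell markers passed, against 13.0% of all genes. In whole lung, fewer cells of a type and less RNA per cell cannot be told apart.

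**Figure D4:**
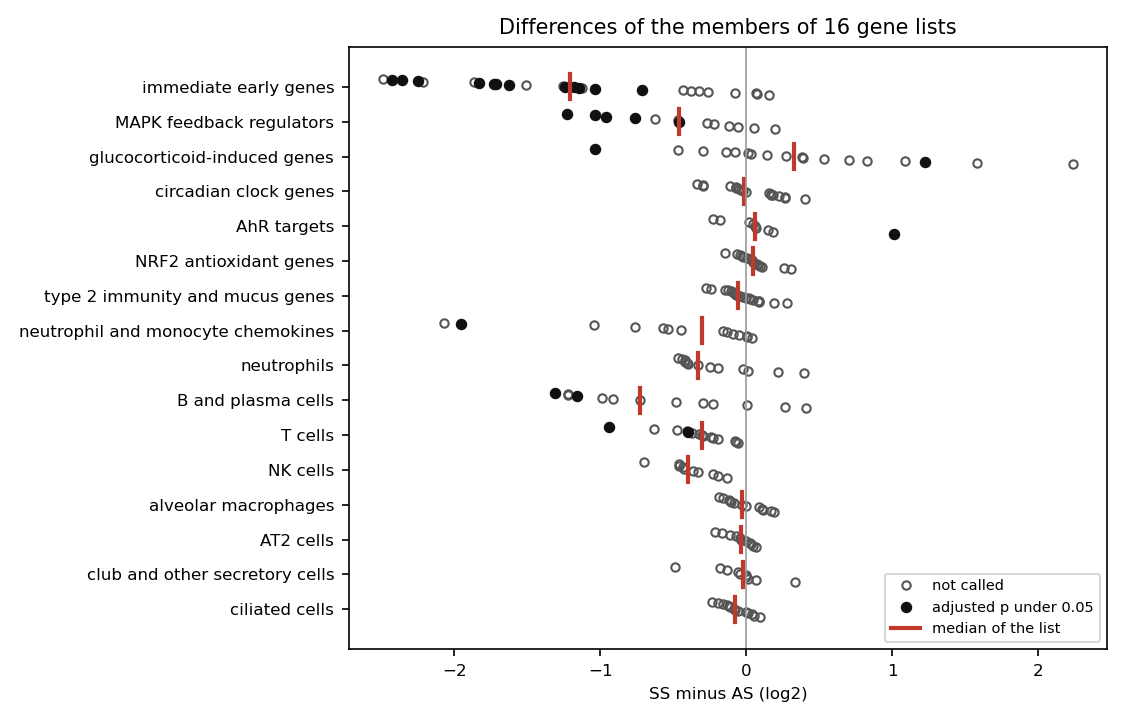
Difference SS minus AS (log2, x axis) of every measured member of 16 gene lists (rows), with called members as filled points and the list median as a red bar. Calls fall mainly in the immediate early and MAPK feedback lists, on the left of 0, with 2 each among B and T cell markers, and the lists of epithelial cells and alveolar macrophages centre on 0.

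Further called falls outside these lists were genes known from leukocytes, picked out here after their values were seen. Cxcr4, the receptor for CXCL12, had 9.71, 9.72 and 9.91 in SS and 10.81, 10.68 and 10.45 in AS (−0.87, SE 0.12, adjusted p = 0.00335). Irf8, a transcription factor of B cells and of the monocyte and dendritic lineages, had 9.04, 9.03 and 9.01 in SS and 9.79, 9.61 and 9.58 in AS (−0.63, adjusted p = 0.00919). Both calls held in all leave-out fits. Rgs1, a G-protein regulator abundant in activated B cells, fell by 1.47 (adjusted p = 0.00282). The inhibitory B cell lectins Siglecg and Cd22 fell by 0.89 and 0.51 (adjusted p = 0.0142 and 0.0241), the tetraspanin Cd37 by 0.77 (0.0137), lymphotoxin beta, Ltb, by 0.90 (0.0317), the kinase Syk by 0.51 (0.0137) and the leukocyte actin regulator Coro1a by 0.63 (0.0138). Each of Siglecg, Cd22, Cd37, Ltb, Syk and Coro1a lost its call when at least 1 SS sample was left out, at adjusted p-values up to 0.0857, 0.117, 0.0641, 0.146, 0.0691 and 0.0705. The B and plasma cell marker mean was −0.95 to −0.48 in the SS samples and −0.31 to 0.13 in the AS samples, relative to AA. The T cell marker mean was −0.31 to −0.19 in SS and −0.05 to 0.19 in AS. The part of these marker levels in the falls of Cxcr4, Irf8 and the other leukocyte genes was not tested.

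Few myeloid genes were called. Ccl3, the chemokine MIP-1-alpha of macrophages and neutrophils, had 5.97, 5.73 and 5.42 in SS and 7.66, 8.93 and 6.39 in AS (−1.96, SE 0.42, adjusted p = 0.0412). Its AS samples ranged over more than 2 log2 units, and leaving out any of 10 samples ended the call (adjusted p-values of 0.0506 to 0.17). It was the only called one of 14 neutrophil and monocyte chemokines (median −0.30), where 0.467% of all genes fell. Cxcl2, a neutrophil attractant, differed by −2.07 (adjusted p = 0.109), with 7.63, 8.83 and 5.28 in AS, where the averaged sample lay at the SS level (5.31, 5.30 and 4.93). The 13 neutrophil markers had a median of −0.33, none was called by limma, and 1 had an unadjusted p under 0.05. Neither were any of the 13 alveolar macrophage markers (median −0.03, and 0.04 without the averaged AS sample, 1 at an unadjusted p under 0.05) or any of the 22 type 2 immunity and mucus genes (median −0.05, 1). Retnla, a macrophage and epithelial product of type 2 responses, differed by 0.28 and Alox15 by −0.28. Nrros, a leucine-rich repeat protein of myeloid cells, fell by 0.93 (SE 0.08, adjusted p = 9.82e-05), its SS samples all at 9.40 and its AS samples at 10.32, 10.27 and 10.40.

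Structural cells of the lung showed few changes. Among markers of alveolar type 2 cells (11 genes, median −0.03, and 0.02 without the averaged AS sample), club and other secretory cells (10, −0.02) and ciliated cells (14, −0.08) none was called by limma, and 1, 0 and 0 had an unadjusted p under 0.05. Of 18 markers of capillary, vein and lymphatic endothelium 2 fell and none rose, where 0.467% of all genes fell. These were Aplnr, the apelin receptor, by 0.48 (adjusted p = 0.00557) and the homeobox gene Hhex by 0.74 (0.0128). Kit, the stem cell factor receptor listed here with mast cells, fell by 0.50 (adjusted p = 0.0162). The calls of Hhex and Kit were lost without the averaged SS sample (0.0694 and 0.0759) or SS replicate 3 (0.0676 and 0.0658), and that of Kit also without SS replicate 4 (0.0751). Smooth muscle and pericyte markers had the highest median of the cell type lists, 0.16, with 13 of 16 above 0, none called and 5 at an unadjusted p under 0.05. Their largest difference was 0.63 for Myocd, the coactivator of smooth muscle gene expression (adjusted p = 0.0947). In all, 12 of 57 lists held a called gene and 45 held none, where 0.764% of all genes were called. The lists share genes. Dusp1 is on the immediate early, MAPK feedback and glucocorticoid lists. Btg2, on the immediate early list, was also the only called gene of the p53 target list. Ccr7, on the T cell list, was also the only called one of the dendritic cell list.

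The adults kept in air show which group lay farther off for each called gene. Taking the midpoint of the SA and AA means for each gene, 48 of the 85 lower genes had SS farther from it and 37 had AS farther. Of the 54 higher genes 34 had SS farther and 20 had AS farther. Of the 12 called immediate early genes all but Ier3 were of the kind in which AS was farther: Zfp36 lay 1.66 above that midpoint in AS and 0.07 below it in SS. Nrros was of the other kind, 0.80 below the midpoint in SS and 0.13 above it in AS, and so was Cxcr4, 0.94 below it in SS and 0.08 below it in AS. Slc16a4 and Klf10 were higher in SS than in AS with AS the low group. The midpoint pools AA with SA, which had prenatal smoke, and the positions depend on that choice. Relative to AA alone, SS was the farther group for Egr1 (SS −1.54, AS 0.88) and for Fos (SS −1.61, AS 0.64). Over the 26 immediate early genes the median difference from AA was 1.01 in AS and −0.17 in SS. All these positions are descriptions and share the SS and AS values that made the calls.

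The next question was whether the difference by prenatal exposure was the same in adults in smoke and in adults in air. This was tested as the difference of the 2 differences, (SS minus AS) minus (SA minus AA), whose 2 parts share no sample. It passed for 59 probe sets (0.131%), 37 above 0 (0.0822%) and 22 below (0.0488%). At the brightest probe set it passed for 21 genes (0.115%), 6 above 0 (0.033%) and 15 below (0.0824%). Of these 21 genes 20 were also called in SS minus AS. Creb5 had the largest positive value, 1.68 (SE 0.22, adjusted p = 0.00737), with a difference of 1.64 in smoke and −0.05 in air. Klf10 followed at 1.31 (SE 0.20, adjusted p = 0.017), with 1.27 in smoke and −0.04 in air, and missed the threshold without AS replicate 2 (adjusted p = 0.0572), the averaged SS sample (0.062) or SS replicate 4 (0.0603). Hlx, a homeobox transcription factor of haematopoietic and mesenchymal cells, had −1.41 (adjusted p = 0.00822). It was lower after prenatal smoke in smoke-breathing adults, with 9.03, 8.997 and 8.59 in SS and 9.75, 10.07 and 9.90 in AS, and in air averaged 9.71 ± 0.22 in SA and 9.34 ± 0.16 in AA (SD, n = 4 each). Without the averaged AS sample 39 genes passed. Without SS replicate 4, 9 passed, and without AS replicate 2, 11 did. Of the 139 called genes 87 had the same sign in SA minus AA, as did 55.6% of all genes. The median size of their difference was 0.097 in air and 0.59 in smoke. These genes were chosen by their SS minus AS difference, so the larger size in smoke follows from the choice and does not compare the 2 settings.

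**Figure D5:**
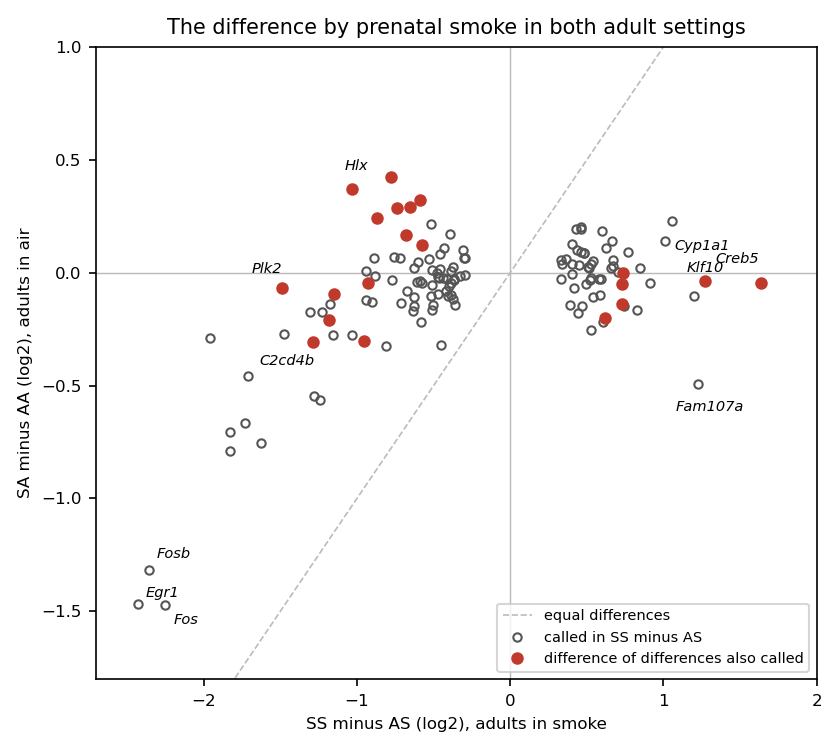
SS minus AS (log2, adults in smoke, x axis) against SA minus AA (log2, adults in air, y axis) for the 139 called genes. Genes whose difference of differences also passed are red, and the dashed line marks equal differences. Most points lie near 0 on the y axis, while Egr1, Fos and Fosb lie in the lower left with SA minus AA between −1.47 and −1.32. The genes were chosen by their x axis values, so the smaller sizes on the y axis follow from the choice.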

How the data were processed

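The authors deposited 1 table of log2 expression values for 45101 probe sets on 16 arrays, whose array medians lay between 6.90 and 6.93. Per the submitters' processing notes limma was used, with no version or role. Neither the background correction nor the normalization is stated in the sources used here. Arrays carry no read depth, so precision is limited by their number. The 64 control probe sets were left out, which left 45037. Of these 34945 had 1 gene symbol in the platform annotation, 932 had several and 9160 had none, and 34741 symbols were updated through Entrez identifiers. A gene is represented by its brightest probe set, the one with the highest mean over 14 samples.

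Near-identical arrays within a group were averaged. limma 3.58.1 in R 4.3.3 fitted 1 mean per exposure group to the 14 samples (10 residual degrees of freedom), with lmFit, contrasts and eBayes, a two-sided test and Benjamini-Hochberg adjustment over all probe sets, called at an adjusted p under 0.05. The same fit gave (SS minus AS) minus (SA minus AA). The code was tested on simulated data. P-values measure the spread between these animals, whose litters are not given.

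Named genes are the 15 largest called rises and 15 largest called falls without overlap, and for the difference of differences the 6 lowest p-values in each direction. In each gene list up to 3 called members and up to 2 others with the largest differences are named. Other genes in the text were chosen after their values were seen. The comparison and the 57 gene lists (844 of 927 entries on the array) were chosen with earlier results of these data known. Promoter windows came from RefSeq, assembly GRCm38.p6. Alternatives covered the samples fitted, averaging, the replicate block, normalization, array weights, variance priors, a filter on dim probe sets and leaving out each sample.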

Additional observations from a re-analysis of the deposited data

Results flagged for a closer look

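Of the 21 genes whose difference of differences passed in the limma fit over all 45037 probe sets, the 12 given here have the 6 lowest p-values in each direction. The value was positive for Creb5 (1.68, with 1.64 for SS minus AS and −0.05 for SA minus AA, adjusted p = 0.00737), Ampd3, an AMP deaminase (0.82, adjusted p = 0.015), Klf10 (1.31, 0.017), Dusp16 (0.74, 0.0197), Plxna2 (0.78, 0.0432) and Fkbp14 (0.87, 0.045). It was negative for Zfp608 (−0.85, adjusted p = 0.00661), Nrros (−0.88, 0.00737), C2cd4b (−0.98, 0.00737), Ppp1r15a (−0.97, 0.00822), Hlx (−1.41, 0.00822) and Hs3st1, a heparan sulfate sulfotransferase (−0.91, 0.0142). For Hlx, Zfp608 and Hs3st1 the SS minus AS values were −1.03, −0.68 and −0.59 and the SA minus AA values 0.37, 0.17 and 0.32, of opposite sign. Ampd3, Klf10, Dusp16, Plxna2 and Fkbp14 missed the threshold when certain single samples were left out (Ampd3 without SS replicate 3 or 4, at 0.0552 and 0.0603), and the other 7 kept their call in all 14 such fits.

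In the AA group 1 sample stood far from the other 3 in 2 of 72 groups of values examined, where chance gives about 5%. Rgs1 was 6.57 in AA replicate 4 and 6.32 to 6.36 in the others. The mean of the MAPK feedback regulators, relative to the AA mean, was 0.14 in AA replicate 3 and −0.07 to −0.03 in the others. Neither sample is in SS or AS.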

How the results depend on the processing

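The results rest on 3 samples per group, of which 1 in each is an averaged pair. In SS minus AS, 436 probe sets and 139 genes were called. Fitting only the SS and AS samples gave 131 and 42, treating all 16 arrays as separate samples 2214 and 810, and limma array weights 1181 and 417. With the replicate number as a block over all 16 arrays, 2364 probe sets and 796 genes were called, but same-numbered SS and AS arrays did not deviate together (correlations of −0.062 to 0.037), so the numbers share no known pairing. Leaving out each sample gave 136 to 507 probe sets and 46 to 164 genes, fewest without SS replicate 4. Of the called probe sets 63.07% were higher, against 46.82% with array weights (553 higher and 628 lower), 46.62% without the averaged AS sample (214 and 245) and 74.75% without AS replicate 1. The counts stayed within 1.5 times under a further quantile normalization (467 and 142), median centring (462 and 140), trended robust eBayes (455 and 150), a mean log2 of at least 6 (525 and 189), and a fit of brightest probe sets alone (134 genes). Single calls were still lost: of the genes followed across settings, trended robust eBayes ended those of Fam107a, Fosb, Fos, Ccl3 and Ccn1 (adjusted p-values of 0.0534 to 0.113) and the brightest-only fit that of Fosb (0.0594). The fit of SS and AS samples alone ended 18, among them Egr1 (0.101), Fos (0.153), Slc16a4 (0.0753), Agfg2 (0.0543), Plxna2 (0.0555), Rgs1 (0.0599) and Dusp1 (0.0588).

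For the difference of differences, 59 probe sets and 21 genes were called in the fit reported. All 16 arrays gave 330 and 91, the replicate block 529 and 120, array weights 205 and 82, trended robust eBayes 89 and 35, and quantile normalization 89 probe sets. Leaving out each sample gave 23 to 115 probe sets and 9 to 39 genes. No called gene among those followed changed direction. Medians of 20 of the 57 gene lists, each within 0.068 of 0 as reported, took the other sign under at least 1 setting, 10 of them without the averaged AS sample and 9 with array weights. The causes of these shifts were not tested.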
